A study of Homo sapiens with 48 samples.

Results

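A set of 8 sequencing libraries was compared: 3 of cells stimulated with EGF for 6 h and 5 of cells stimulated with AII (angiotensin II) for 6 h, so that EGF and AII were set against each other directly. They were taken from 48 libraries in the whole series, of which the labels give 6 to each of these groups; 4 of those 12 were left out on the evidence of their counts. All cells came from HEK293, a human embryonic kidney line, and from 1 clone that stably expresses AT1R, the type 1 angiotensin II receptor, so that a feature of that clone is shared by every library. The cells were kept in serum-free medium with 10 µg/L EGF or with 1 nM AII; control cells received neither, and a further group received both at the same doses (AII + EGF). Groups at 24 h were treated alike. Poly(A) RNA was sequenced, and values are fragment counts per Ensembl gene, scaled here to library size (CPM).

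EGF binds the EGF receptor, a receptor tyrosine kinase that signals through Ras, the kinases MEK and ERK, and PI3K-AKT. AT1R couples to the G protein Gq, which activates phospholipase C, releases calcium from the endoplasmic reticulum and activates protein kinase C. Both routes reach ERK and serum response factor (SRF), so a direct comparison asks which genes differ between the stimuli in the same cells, at the doses used. Whether a difference reflects the receptor or the strength of each stimulus was not tested.

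The EGF libraries held 28, 28.4 and 30 M counts (replicates 3, 4 and 5), and the AII libraries 18, 17.8, 20.2, 21 and 26.5 M (replicates 1 to 5). All EGF totals therefore lay above all AII totals. The labels carry no batch, but the sample titles run through the 4 treatments in consecutive stretches, here called title runs. AII replicates 1 and 2 come from title run 1 and the other 6 libraries from title runs 4 and 5. On the first principal component of the 500 most variable genes (62.3% of the variance) AII replicates 1 and 2 stood apart at -13.6 and -13.3, AII replicates 3, 4 and 5 lay at 0.17, -0.97 and -0.96, and the EGF libraries at 8.1, 7.69 and 12.9. Values within title runs 4 and 5 alone (3 EGF, 3 AII libraries) are therefore given beside the main ones for some of the genes and lists. Of the other libraries of these groups, EGF replicates 1, 2 and 6 belong to pairs of libraries whose counts were nearly identical. EGF replicate 1 was paired with a library labelled AII + EGF, and EGF replicates 2 and 6 with each other. Replicates 2 and 6 held 48 and 48.2 CPM of EGR1, where EGF replicates 3 to 5 held 110 to 121 CPM (scaled over all 48 libraries). Their 33.4 and 33.5 CPM of ETV5 lay within the 29.4 to 38.6 CPM of EGF replicates 3 to 5. The library labelled AII replicate 6 held 49.7 CPM of ETV5, where AII replicates 1 to 5 held 5.51 to 9.44 CPM on the same scale. That library also held 40.1 CPM of EGR1 and 88.6 CPM of ARC, where AII replicates 1 to 5 held 6.18 to 8.58 and 6.42 to 9.47 CPM, and 15.1 CPM of CGA, where they held 8.48 to 14.1 CPM. The library labelled AII + EGF replicate 6 in turn held 7.51 CPM of ETV5, 4.66 CPM of EGR1, 7.51 CPM of ARC and 16 CPM of CGA, where the 4 AII + EGF libraries used held 77 to 89.7, 186 to 280, 219 to 270 and 4.95 to 7.48 CPM. Whether the labels of these 2 libraries of title run 7 were exchanged was not tested, and values with AII replicate 6 added assume that its label is right. EGF replicates 1, 2 and 6 and AII replicate 6 were not used. AII replicate 6 was left out for its levels of genes that the comparison itself reports, so the narrow spread of the AII group in those genes partly follows from that choice. Values with it added are given for some of the genes and lists below. The narrow spread of the EGF group in EGR1 likewise depends on leaving out EGF replicates 2 and 6. Of 9 marker genes of HEK293 cells all 9 were detected, with summed levels of 5840 to 6130 CPM under EGF, 3620 to 4730 CPM under AII and 4710 to 5640 CPM in control. Of 10 markers of other cell types, PTPRC, CD3E, COL1A2 and INS had 0 counts in all 8 libraries, PECAM1, CDH5, ALB and DCN had at most 8 counts in any, and only CD14 (5 to 15 counts) and COL1A1 (232 to 372 counts) could be tested.

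Of 19369 genes tested, 177 differed between EGF and AII at 6 h (0.914%): 118 were higher under EGF (0.609%) and 59 were higher under AII (0.305%). Called genes had an adjusted p under 0.01 (Benjamini-Hochberg) in edgeR's quasi-likelihood test, differed by 1.5-fold or more and lay above 5 CPM on average in the higher group. A total of 54 of the 177 differed by at least 2-fold, 33 towards EGF and 21 towards AII. All EGF libraries lay on one side of all AII libraries in each of the 177 genes; over all tested genes this held for 19.7%. Of the 177, 174 are protein coding. Within title runs 4 and 5, all 177 kept their direction and 142 their call (91 of 118 and 51 of 59). With the library labelled AII replicate 6 added, 176 kept their direction but only 45 genes were called (21 towards EGF, 24 towards AII). With every library of title runs 7 and 8 added, 13 were called (1 and 12), and with all 48 libraries 22 (5 and 17). The number of genes called, most of all on the EGF side, therefore rests on the libraries left out. In RNA of whole cultures, a change in every cell and a change in the number of responding cells cannot be told apart.

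**Figure D1:**
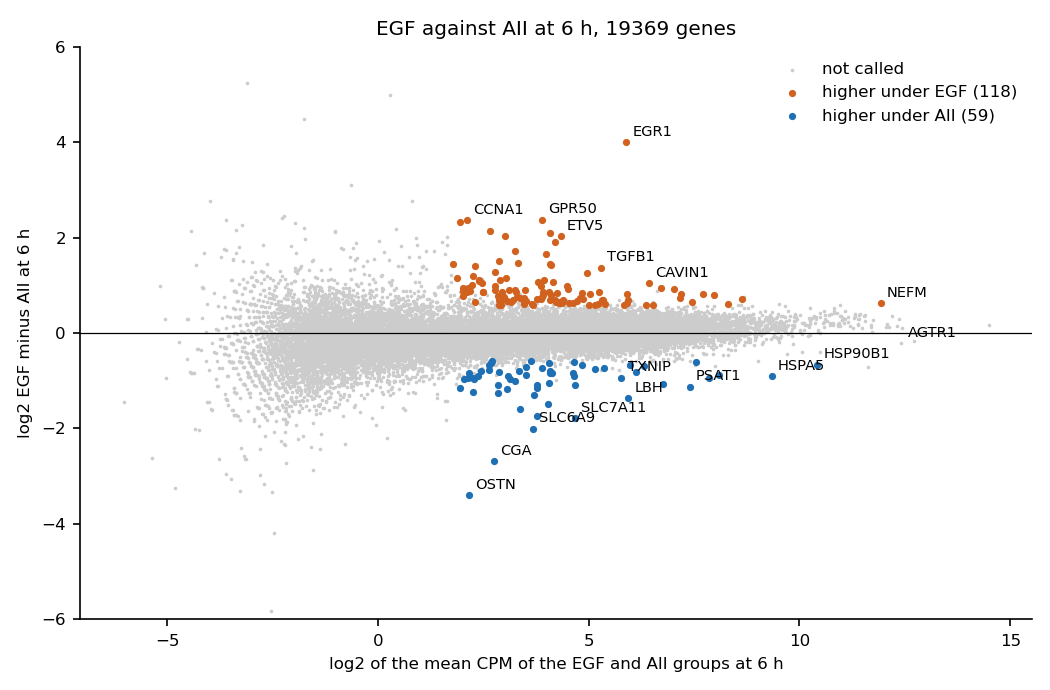
Each point is 1 of 19369 genes, with the log2 of its mean CPM over the 2 groups on the horizontal axis and log2 EGF minus AII at 6 h on the vertical axis. The 118 genes called higher under EGF (orange) reach 4.0 with EGR1, and the 59 called higher under AII (blue) reach -3.39 with OSTN.

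Each stimulus was also set against the control libraries of 6 h (n = 3), which both comparisons share. These controls come from title runs 4 and 5, as do the EGF libraries. AII replicates 1 and 2 and AII + EGF replicates 1 and 2 come from title run 1, of which no control was used. For these libraries a difference from control cannot be told apart from a difference between title runs. EGF changed 381 genes (1.97%; 306 up, 75 down) and AII 110 (0.568%; 102 up, 8 down). Of the 118 genes higher under EGF, 105 were raised by EGF against control, of which 17 were raised by AII too, and 13 were called against control under neither stimulus. None of the 118 was lowered by AII. The 118 and 59 genes were chosen by the same EGF and AII libraries, so their counts for each stimulus against control partly follow from that choice. The 59 genes higher under AII fell into several groups against control: 26 were raised by AII, 17 were lowered by EGF, and 17 were called against control under neither. ASB11, which encodes an ankyrin repeat protein of ubiquitin ligases, is in both of the first groups, and LBH was raised by both stimuli, but more by AII. Under AII + EGF, 110 of the 118 were higher than control, where 1165 of all 19369 tested genes were higher and 1123 lower. These calls use the same control libraries as the calls under each stimulus. Of the 26 genes raised by AII, 16 were higher than control under AII + EGF, 9 were not called and 1 was lower; all 17 genes lowered by EGF were lower under AII + EGF as well.

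**Figure D2:**
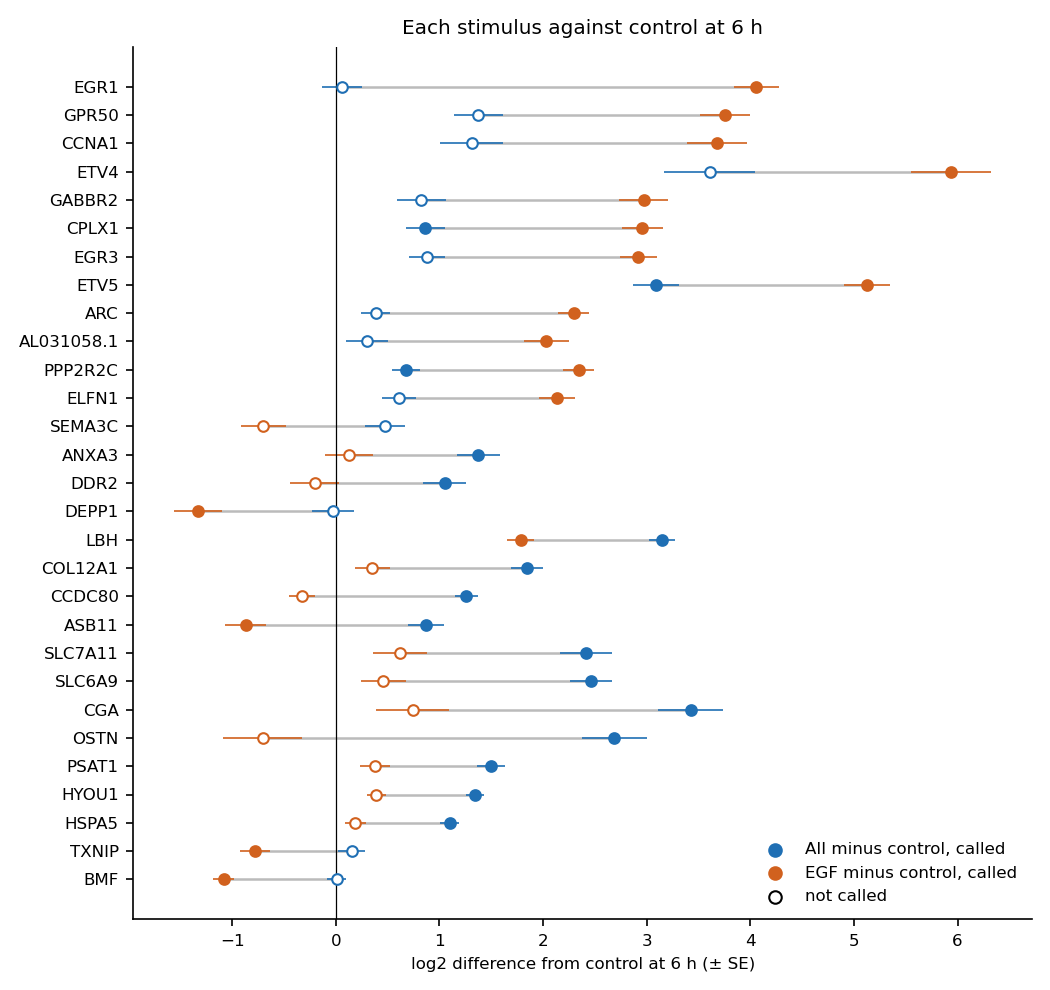
Log2 difference from control at 6 h (± SE of the fit) under AII (blue) and EGF (orange) for the 12 largest differences in each direction and 5 further genes; filled points were called. EGR1 rose under EGF (4.06) and was not called under AII (0.06), ETV5 rose under both (5.13 and 3.09), and DEPP1, TXNIP and BMF fell under EGF.

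The called gene that differed most towards EGF was EGR1, a zinc finger transcription factor and immediate-early gene (chr5:138465479-138469303, GRCh38). It stood at 110, 109 and 117 CPM under EGF and at 6.6, 6.12, 7.22, 8.52 and 6.53 CPM under AII, with 6.65 to 6.83 CPM in control. The AII libraries lay around the control level and the EGF libraries far above it. The difference was 16-fold (log2 4.0, SE 0.18, adjusted p = 7.57e-17), and log2 3.92 within title runs 4 and 5. EGR1 was still called with the library labelled AII replicate 6 added (log2 3.17) and with all 48 libraries (log2 2.98). The EGR1 promoter is shown because its CArG boxes, the binding sequence of SRF, are a textbook route from ERK to this gene. It was the only one of 80 promoters of the EGF side with a CArG box (1.25%), against 1.05% of tested genes and 2.27% of the AII side, and an ETS site (CCGGAAGT) was found in 1.25% of the EGF side against 7.96% of tested genes. The stretch of EGR1 from 120 to 61 bases before the RefSeq start (GRCh38.p14) holds 2 CArG boxes, in capitals:
EGR1 (chr5:138465359-138465418, plus strand): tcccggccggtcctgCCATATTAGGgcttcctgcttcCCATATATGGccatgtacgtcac

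Other immediate-early genes under SRF and its ERK-regulated partners moved the same way. EGR3, a relative of EGR1, had 12.7, 13.2 and 12.9 CPM under EGF and 4, 2.59, 2.91, 3.14 and 3.07 CPM under AII (log2 2.04, SE 0.14, adjusted p = 4.7e-12). ARC, an immediate-early gene best known from synapses, had 29.4, 27.2 and 30.4 CPM under EGF against 7.33, 7.02, 9.35, 8.52 and 6.37 CPM under AII (log2 1.91, SE 0.12, adjusted p = 3.12e-12). For AII against control, EGR3 passed the p and fold limits (log2 0.88, adjusted p = 0.00215 in edgeR) and missed only the 5 CPM minimum, and ARC was not called (log2 0.38, adjusted p = 0.195). The ARC call was lost with the library labelled AII replicate 6 added (log2 0.46, adjusted p = 0.73 in edgeR). NAB2, a corepressor that binds EGR proteins and is itself induced by them, differed less, and was raised by AII too: it stood at 41.6 to 45.2 CPM under EGF, 15.4 to 20.1 CPM under AII and 5.96 to 8.18 CPM in control (log2 EGF minus AII 1.26, SE 0.11). FOS and FOSL1, subunits of the AP-1 factor, were also higher under EGF, at 6 to 8.05 against 2.7 to 3.79 CPM for FOS and at 12 to 12.6 against 5.28 to 7.62 CPM for FOSL1. Of 27 tested SRF-TCF immediate-early genes 7 were higher under EGF and none under AII, with a median log2 difference of 0.34 against -0.02 over all tested genes; 20 were not called. EGR2, with log2 2.00, was among the latter because it stayed under 5 CPM. With the library labelled AII replicate 6 added 2 of the 27 were called, and with all 48 libraries 1.

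The ETS factors ETV4 and ETV5, whose transcription follows ERK activity, were higher under EGF, and ETV5 was raised by AII as well. ETV5 (chr3:186046314-186109089) had 30.8, 29.2 and 37.4 CPM under EGF, 9.04, 8.71, 7.06, 9.37 and 5.47 CPM under AII and 0.53 to 1.19 CPM in control. AII raised it (log2 3.09, SE 0.22) and EGF raised it further (log2 5.13), so that the EGF libraries lay 4.11-fold above the AII libraries (log2 2.04, SE 0.15, adjusted p = 2.4e-11; log2 2.16 within title runs 4 and 5). The ETV5 call was lost with the library labelled AII replicate 6 added (log2 1.13, adjusted p = 0.172 in edgeR) and with all 48 libraries (log2 1.30, adjusted p = 0.171). ETV4 showed the same order, with 5.38 to 7.79 CPM under EGF, 0.94 to 1.54 CPM under AII and 0.05 to 0.14 CPM in control. Its AII level is under the 5 CPM minimum and was not called against control.

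Of the feedback inhibitors of the Ras-ERK route in the list of PEA3 factors and ERK targets, SPRED1, SPRED2, SPRY2 and DUSP5 were called higher under EGF, and SPRY1, SPRY4, SPRED3, DUSP4, DUSP6 and DUSP7 were not called. SPRED2, which restrains Ras and RAF, had 48, 49.4 and 49.4 CPM under EGF and 29.1, 26.8, 26.4, 26.9 and 25.1 CPM under AII, with 14.6 to 17.6 CPM in control; both stimuli raised it. SPRY2, a Sprouty inhibitor of receptor tyrosine kinase signalling, had 17.8 to 20.9 CPM under EGF and 9.47 to 12.9 CPM under AII, which overlaps the 9.12 to 10.9 CPM of control. DUSP5, a nuclear phosphatase that inactivates ERK, had 8.39 to 10.4 CPM under EGF and 3.64 to 5.03 CPM under AII. SPRY4 had the highest difference of the list (log2 4.99, SE 0.50) at 2.09 to 2.68 CPM under EGF and 0 to 0.21 CPM under AII, too low to be called. Of the 26 PEA3 factors and ERK targets tested, 10 were higher under EGF and none under AII, with a median log2 difference of 0.75; with the library labelled AII replicate 6 added 1 was called, and with all 48 libraries 0. The remaining called members were SPRED1, the receptor EPHA2, PHLDA2, FOSL1 and IER3, between log2 0.63 and 1.47.

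**Figure D3:**
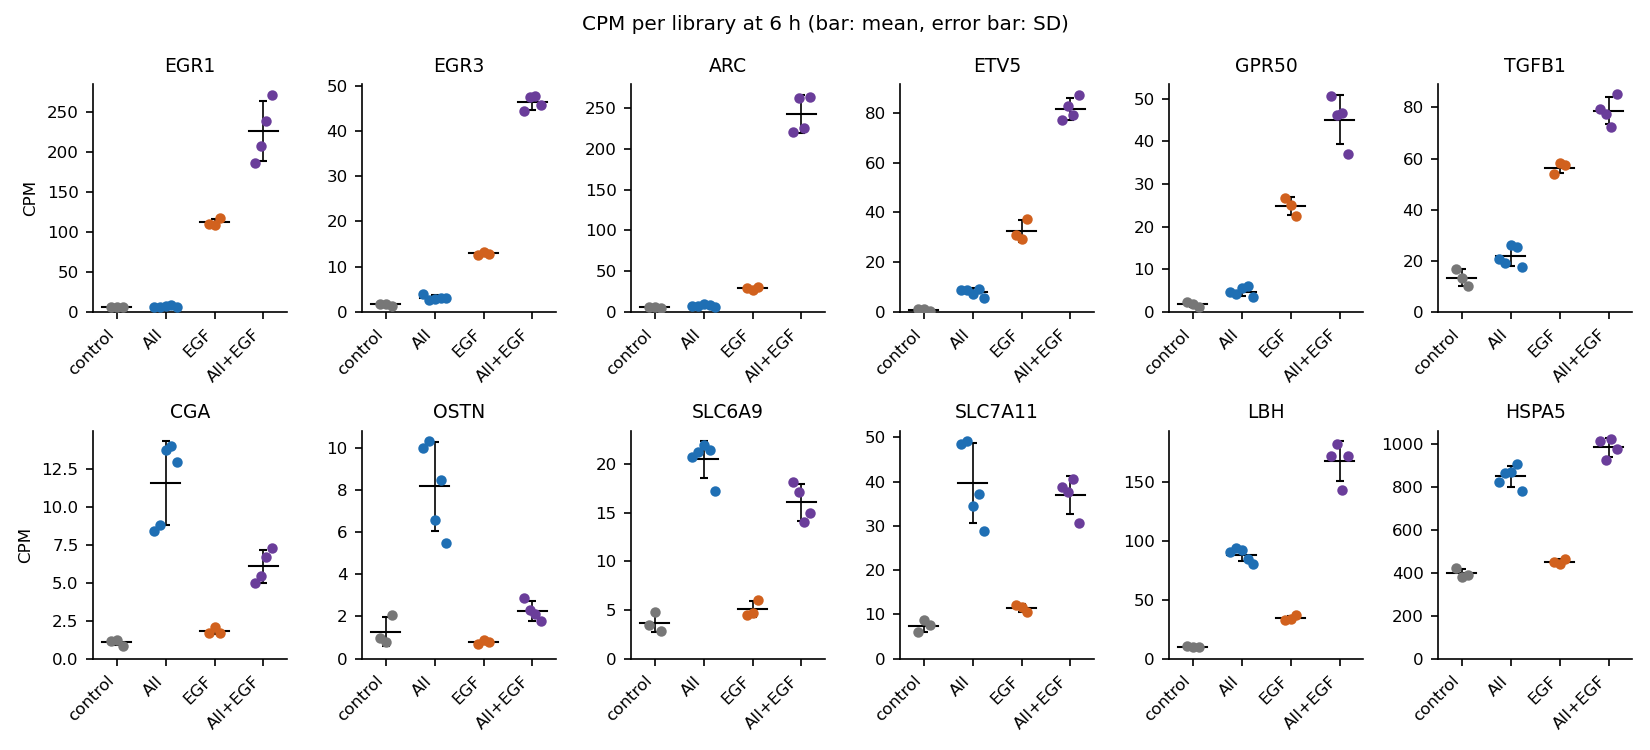
CPM of 12 genes in each library at 6 h (points), with the mean and SD of the group, for control (n = 3), AII (n = 5), EGF (n = 3) and AII + EGF (n = 4). In the upper row the EGF libraries lie above all AII libraries, in the lower row below them, and CGA, OSTN and SLC7A11 also show AII replicates 1 and 2, the first 2 points, apart from the other AII libraries.

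The other large differences towards EGF fell on genes of several kinds. GPR50, an orphan receptor related to melatonin receptors, had 26.7, 25.2 and 22.6 CPM under EGF and 4.63, 4.12, 5.56, 6.03 and 3.58 CPM under AII (5.2-fold, log2 2.38, SE 0.19, adjusted p = 1e-10). CCNA1, the germ-line A-type cyclin, had 6.65 to 7.72 CPM under EGF and 1.1 to 1.79 CPM under AII (log2 2.37, SE 0.22). GABBR2, a subunit of the GABA-B receptor, had 10 to 10.5 CPM under EGF and 1.53 to 3.17 CPM under AII (log2 2.15, SE 0.19). In none of the 3 genes did the libraries used overlap. By label, libraries left out did overlap in GPR50 (scaled over all 48 libraries). AII replicate 6 held 20.4 CPM, and EGF replicates 1, 2 and 6 held 30.7, 11.7 and 11.4 CPM. Control libraries held 1.17 to 2.38 CPM of GPR50, 0.43 to 0.67 CPM of CCNA1 and 1.09 to 1.44 CPM of GABBR2. Against control under AII, GPR50 passed the p and fold limits (log2 1.38, adjusted p = 0.000389 in edgeR) and missed only the 5 CPM minimum, while CCNA1 (log2 1.31, adjusted p = 0.012) and GABBR2 (log2 0.83, adjusted p = 0.0561) did not pass the p limit. CPLX1, a complexin of synaptic vesicle release, PPP2R2C, a regulatory subunit of the phosphatase PP2A, ELFN1, a synaptic adhesion protein, and AL031058.1, a gene without an approved name, completed the 12 largest, at log2 2.09, 1.67, 1.52 and 1.73. TGFB1, the cytokine TGF-beta 1, had 54, 58.2 and 57.3 CPM under EGF and 20.8, 19, 26.1, 25.6 and 17.8 CPM under AII (2.58-fold, adjusted p = 1.05e-06). It was the only called member among 25 ligands and feedback genes of the TGF-beta route. Its promoter is shown because it holds the letters GCGTGGGCG of an EGR site, read on the strand opposite to the printed one (capitals), between 160 and 101 bases before its start:
TGFB1 (chr19:41354023-41354082, minus strand): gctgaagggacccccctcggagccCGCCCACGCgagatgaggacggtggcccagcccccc
Of 80 promoters found for the 118 genes, 3.75% held these letters on either strand in the 300 bases around the start, against 1.31% of 11541 promoters of tested genes. The other 2 belong to MAMLD1 and KCTD12. EGR1 and EGR3 are themselves higher under EGF, and no binding was measured.

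CAVIN1, a coat protein of caveolae and a target of the actin-regulated SRF partner MRTF, had 114 to 119 CPM under EGF, 52.7 to 62.6 CPM under AII and 31.3 to 37 CPM in control, and was raised by both stimuli. It was the only call among 30 MRTF-SRF and YAP targets (median log2 0.02). PFKP, a phosphofructokinase of glycolysis, and NDRG1, a hypoxia-responsive gene, were the called members of 33 HIF and glycolysis genes, of which 30 lay above 0 (median log2 0.26; 0.17 within title runs 4 and 5). Over all 19369 tested genes 9057 lay above 0 at 6 h, the share to set beside this and the later counts of list members above or below 0. PLAT, the tissue plasminogen activator, NPTX2, a secreted pentraxin, and PRKCD, protein kinase C delta, were higher under EGF by log2 0.70, 0.86 and 0.59. The PRKCD call was lost within title runs 4 and 5 (log2 0.48), as was that of NEFM, a neurofilament and HEK293 marker (log2 0.62 and 0.47), which had 4530 to 4920 CPM under EGF, 2580 to 3510 CPM under AII and 3310 to 4370 CPM in control. NEFM accounts for most of the summed HEK293 marker level given above. TUBB2A and TUBA1A, tubulin genes with close copies whose reads can be shared, were called towards EGF and not called within title runs 4 and 5.

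The called gene that differed most towards AII was OSTN, which encodes the secreted peptide osteocrin (chr3:191199241-191265615). It had 10, 10.3, 6.55, 8.47 and 5.47 CPM under AII and 0.68, 0.86 and 0.77 CPM under EGF, with 0.76 to 2.07 CPM in control (10.5-fold, log2 EGF minus AII -3.39, SE 0.32, adjusted p = 7.38e-09). AII replicates 1 and 2 were the highest, and within title runs 4 and 5 the difference was -3.14. OSTN, and CGA and SLC6A9 below, were also called with the library labelled AII replicate 6 added and with all 48 libraries. Under AII + EGF it stood at 1.78 to 2.89 CPM and was not called against control.

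CGA, the alpha subunit shared by the glycoprotein hormones (chr6:87085498-87095106), had 8.42, 8.76, 13.7, 14 and 12.9 CPM under AII and 1.66, 2.05 and 1.69 CPM under EGF, with 0.85 to 1.21 CPM in control. Here AII replicates 1 and 2 were the lowest of the AII group, and every AII library was above every EGF library (6.41-fold, log2 -2.68, SE 0.28, adjusted p = 5.39e-08; -2.91 within title runs 4 and 5). AII + EGF gave 4.96 to 7.27 CPM, between the 2 stimuli. The CGA promoter is shown for its tandem cAMP response elements (TGACGTCA), a textbook target of CREB, in capitals between 160 and 101 bases before the start:
CGA (chr6:87095207-87095266, minus strand): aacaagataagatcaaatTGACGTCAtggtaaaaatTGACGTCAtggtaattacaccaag
Of 44 promoters found for the 59 genes higher under AII, 4.55% held this element (CGA and LPP), against 3.12% for tested genes and 3.75% for the EGF side. Among 15 tested genes with a known cAMP response element, CGA was the only one higher under AII and NPTX2 the only one higher under EGF. The lists of Gq signalling and RGS genes (29 tested, median log2 -0.01) and of calcium, NFAT and calcineurin genes (24 tested, median -0.07) held no gene called higher under AII; PRKCD and EGR3 were called towards EGF.

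Genes of amino acid supply formed a group on the AII side. SLC6A9, a glycine transporter, had 20.7, 21.2, 22, 21.4 and 17.2 CPM under AII and 4.52, 4.7 and 6.06 CPM under EGF, with 2.82 to 4.76 CPM in control (log2 -2.01, SE 0.19, adjusted p = 7.62e-09). SLC7A11, the cystine-glutamate exchanger, had 48.6, 49.3, 34.4, 37.3 and 28.9 CPM under AII and 12.1, 11.7 and 10.5 CPM under EGF (log2 -1.79, SE 0.24; -1.55 within title runs 4 and 5). PSAT1, an enzyme of serine synthesis, had 216 to 245 CPM under AII, 99.8 to 113 CPM under EGF and 75.8 to 90.5 CPM in control. These genes, with CTH, which makes cysteine, were raised by AII against control and were not called for EGF. NUPR1 and ALDH1L2 were also higher under AII than under EGF (log2 -1.15 and -1.09), with no call against control. In all, 6 of 32 ATF4 target genes were higher under AII and none under EGF, with a median log2 of -0.13; 23 lay below 0. With the library labelled AII replicate 6 added, or with all 48 libraries, 4 were called. The stress-induced factors ATF3 and DDIT3 were not called: ATF3 had 65.2 to 78.4 CPM under AII and 93 to 113 CPM under EGF (adjusted p = 0.0118), and DDIT3, which encodes CHOP, had 2.43 to 4.36 and 3.21 to 4.15 CPM. None of 20 cytosolic aminoacyl-tRNA synthetases was called (median log2 -0.01; HARS1, of smallest p, at 0.29). The amino acid response element of ATF4 (TGATGNAA), searched after the values had been seen, occurred in 6.82% of the AII-side promoters, in none of the EGF side and in 1.67% of tested genes. The AII-side promoters with it were those of OSTN, SEMA3C and TRIM2, none of them a list member. That of OSTN is shown from 110 to 51 bases before its start, with the element in capitals:
OSTN (chr3:191199131-191199190, plus strand): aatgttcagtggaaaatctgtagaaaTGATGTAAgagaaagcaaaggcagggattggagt

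Chaperones of the endoplasmic reticulum were higher under AII. This list and the next were drawn up after the values had been seen, so their counts are a description. HSPA5, the chaperone BiP, had 823, 861, 867, 907 and 779 CPM under AII and 451, 439 and 462 CPM under EGF, with 379 to 420 CPM in control (log2 -0.91, SE 0.09, adjusted p = 4.16e-08). HYOU1, which exchanges nucleotides on BiP, had 287 to 322 CPM under AII and 153 to 161 CPM under EGF, and the disulfide isomerase PDIA4 had 325 to 380 and 186 to 201 CPM. HSP90B1 (GRP94), the BiP partner DNAJB11, CRELD2 and the oxidase ERO1B were called too, between log2 -0.61 and -0.73. AII raised 6 of these 7 against control, while none was called for EGF, where HYOU1 (log2 0.39, adjusted p = 0.00473 in edgeR) missed the fold minimum. Of 32 genes in the list 7 were called, all towards AII, and 25 lay below 0 (median log2 -0.32; 8 called and -0.34 within title runs 4 and 5; 7 called with the library labelled AII replicate 6 added and 3 with all 48 libraries). XBP1 and HERPUD1 were not among them, at 52.2 to 60.1 against 64.2 to 70.4 CPM and 15.7 to 20.1 against 20.6 to 22.1 CPM under AII and EGF.

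The promoters of 4 of these 7 genes hold the endoplasmic reticulum stress response element (searched on either strand), the classical binding sequence of ATF6 with NF-Y. It occurred in 5 of the 44 promoters of the AII side (11.4%), in 0 of 80 of the EGF side and in 16 of 11541 promoters of tested genes (0.139%). The fifth was that of TRIM5, a restriction factor with 7.86 to 10.4 CPM under AII and 4.96 to 5.57 CPM under EGF. The motif was searched after the chaperones had been seen on this side, and a match of letters is not a measured site. The stretches with the elements in capitals, upstream of each start, are:
HSPA5 (chr9:125241374-125241433, minus strand): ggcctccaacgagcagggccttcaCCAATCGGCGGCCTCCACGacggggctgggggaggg
CRELD2 (chr22:49918534-49918593, plus strand): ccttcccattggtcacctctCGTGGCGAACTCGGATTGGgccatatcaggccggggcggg
HSP90B1 (chr12:103930210-103930349, plus strand): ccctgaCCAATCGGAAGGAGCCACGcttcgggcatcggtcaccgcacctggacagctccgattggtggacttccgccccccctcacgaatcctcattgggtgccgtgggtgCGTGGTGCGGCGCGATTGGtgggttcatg
ERO1B (chr1:236282159-236282208, minus strand): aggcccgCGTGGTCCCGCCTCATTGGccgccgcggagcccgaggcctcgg
HSP90B1 carries the element 2 times, and CRELD2 and ERO1B carry it in the reverse direction.

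Some collagens and other matrix genes were higher under AII. COL12A1, a collagen that decorates fibrils, had 27.2, 26, 23.8, 23 and 21 CPM under AII and 8.28, 8.2 and 9.37 CPM under EGF, with 4.77 to 8 CPM in control (log2 -1.49, SE 0.15). CCDC80, a secreted matrix protein, had 14.2 to 17.3 CPM under AII against 5 to 5.42 CPM under EGF and 5.66 to 7.07 CPM in control (log2 -1.58, SE 0.11). DDR2, a receptor tyrosine kinase for collagen, had 8.26 to 12.3 and 3.49 to 4.74 CPM, and COL3A1 had 16.7 to 21.6 and 7.42 to 10.7 CPM. FBN2, a fibrillin, was the fifth call among 30 collagens and matrix genes (median log2 -0.21); with the library labelled AII replicate 6 added, or with all 48 libraries, 2 were called. Under AII + EGF the members stood at different levels: COL12A1 had 20.4 to 26.2 CPM, overlapping AII alone, whereas CCDC80, DDR2 and COL3A1 had 6.8 to 7.91, 3.51 to 5.32 and 7.9 to 9.15 CPM and were not called against control. The thyroid hormone receptor THRB, the focal adhesion protein LPP, STON1 and PPEF1 were likewise raised by AII and not called under AII + EGF. ANXA3, also raised by AII, had 3.97 to 5.11 CPM under AII + EGF and 2.18 to 2.8 CPM in control, and missed only the 5 CPM minimum there (log2 0.79, adjusted p = 0.00511 in edgeR).

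LBH, a transcriptional cofactor, was raised by both stimuli but more by AII: 90.6, 93.3, 92.1, 84.7 and 79.7 CPM under AII, 32.8, 33.2 and 36.6 CPM under EGF and 9.63 to 10.4 CPM in control (log2 EGF minus AII -1.36, SE 0.11, adjusted p = 6.1e-10). Under AII + EGF it reached 143 to 182 CPM, above either stimulus. It was the only gene called higher under AII that EGF also raised. ASB11 had 18.6 to 26.1 CPM under AII, 5.65 to 7.13 CPM under EGF and 10 to 13.9 CPM in control, the reverse pattern of a rise under one stimulus and a fall under the other. ANXA3, a calcium-dependent membrane binding protein, and SEMA3C, a secreted guidance cue, completed the 12 largest differences towards AII at log2 -1.25 and -1.18.

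A further part of the AII side consisted of genes that EGF lowered and that were not called for AII against control. BMF, a pro-apoptotic BH3 protein, had 14.6, 17.2 and 17.2 CPM under EGF and 33.3, 34.7, 34.1, 31.2 and 40.5 CPM under AII, with 33.5 to 36.1 CPM in control (log2 -1.09, SE 0.10, adjusted p = 1.31e-09). TXNIP, an arrestin-domain inhibitor of glucose uptake and thioredoxin, had 35.1 to 40.8 CPM under EGF, 66 to 82 CPM under AII and 57.8 to 69.5 CPM in control. DEPP1, a FOXO target, had 7.15 to 7.91 CPM under EGF and 15.1 to 23.8 CPM under AII, and KIT, the receptor of stem cell factor, had 11.9 to 13.3 and 20.7 to 24.7 CPM. Of 25 FOXO targets and TXNIP relatives, DEPP1 and TXNIP were called towards AII and 20 lay below 0 (median log2 -0.18). Under AII + EGF, BMF (7.69 to 10.1 CPM) and TXNIP (19.8 to 26.4 CPM) lay below every EGF library.

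**Figure D4:**
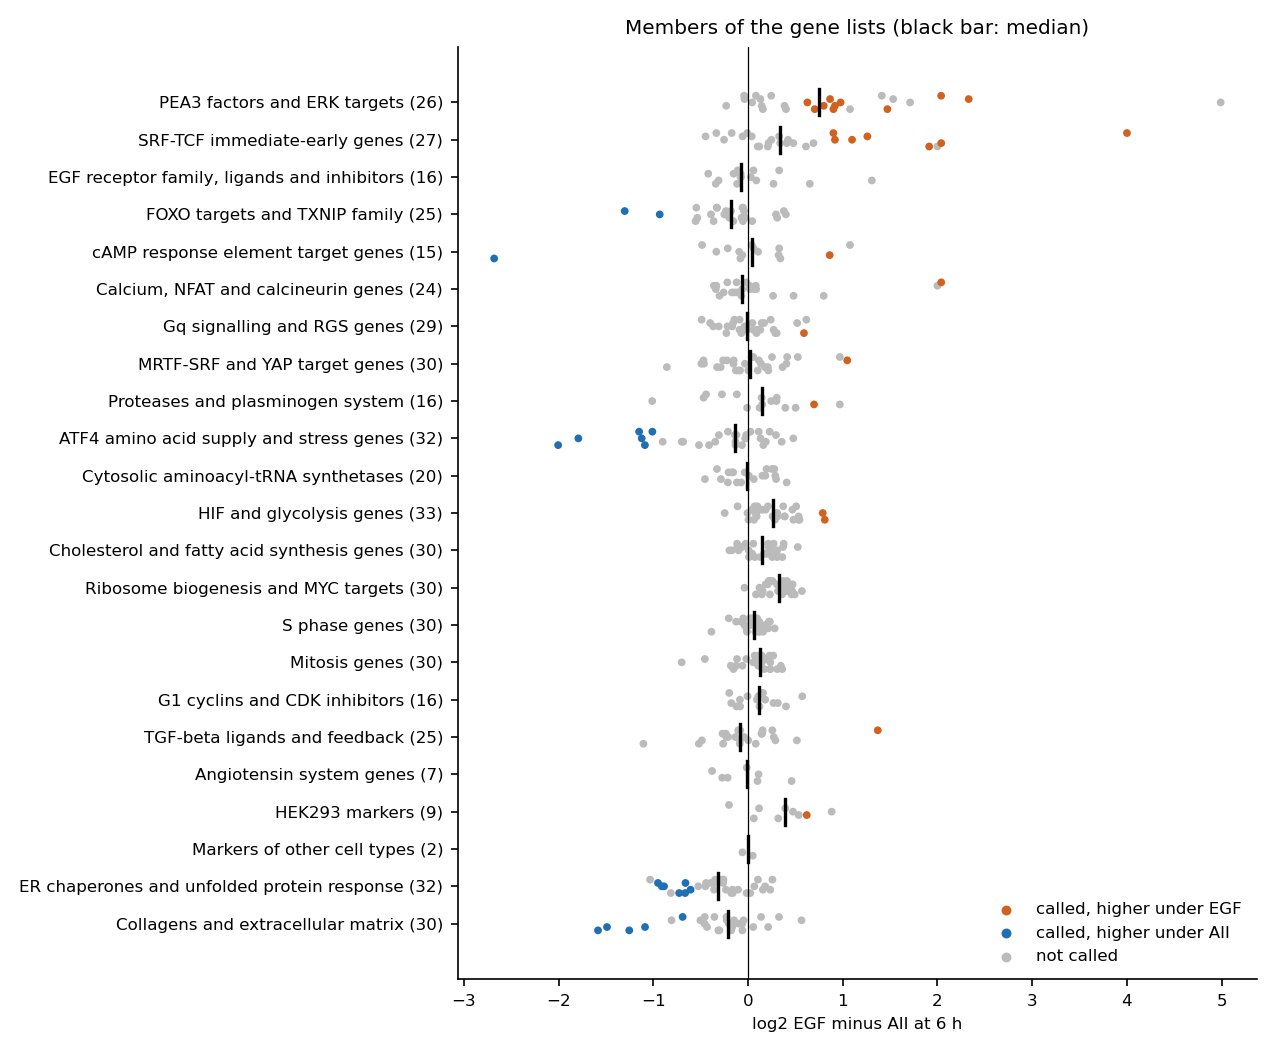
Log2 EGF minus AII at 6 h of each tested member (points) of the gene lists, with the number tested in brackets and the median as a black bar. PEA3 factors and ERK targets (median 0.75) and SRF-TCF genes (0.34) lie to the right, ATF4 genes, endoplasmic reticulum chaperones (-0.32) and matrix genes (-0.21) extend to the left, and ribosome biogenesis lies right of 0 with no call.

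The receptors themselves were not called between EGF and AII. Counts of AGTR1, the gene of AT1R (chr3:148697903-148743003), do not tell the introduced copy from the cells' own. It had 5000, 5360 and 4840 CPM under EGF and 5720, 5910, 6110, 6030 and 5630 CPM under AII, with 4150 to 4460 CPM in control (log2 -0.21, SE 0.11, adjusted p = 0.3). EGFR had 30.9, 34.9 and 28.6 CPM under EGF and 28.3, 29.6, 23.2, 24.6 and 25 CPM under AII (log2 0.27, adjusted p = 0.211), with 16.3 to 22.7 CPM in control. Against control EGFR was called higher under EGF (log2 0.69, adjusted p = 0.000488 in edgeR) and not under AII (log2 0.42, adjusted p = 0.0532). Among 16 genes of the EGF receptor family, its ligands and inhibitors none was called, and HBEGF, the ligand released in receptor cross-talk, had the smallest p, with 4.44 to 4.81 CPM under EGF and 2.75 to 3.48 CPM under AII. It passed the p and fold limits without overlap of the libraries (log2 0.65, adjusted p = 0.00274 in edgeR) and missed only the 5 CPM minimum. None of 7 angiotensin system genes was called (ACE had the smallest p, at log2 0.46). Ribosome biogenesis and MYC targets had a median log2 of 0.33, 29 of 30 above 0, and no call; NOP16 had the smallest p and missed only the fold minimum (log2 0.47, adjusted p = 0.00135 in edgeR). The median was 0.25 within title runs 4 and 5. Cholesterol and fatty acid synthesis genes had a median of 0.15 and no call. S phase, mitosis and G1 cyclin genes had medians of 0.06, 0.12 and 0.11 and no call, with RRM2 (log2 0.28), CCNB1 (0.35) and CCND1 (0.40, under the fold minimum at an adjusted p = 0.000286 in edgeR) as the members of smallest p.

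At 24 h the same contrast called 29 genes (0.15%), 24 higher under EGF and 5 higher under AII; with all 48 libraries edgeR called none (1100 genes at an unadjusted p under 0.05), and within title runs 3 and 6 there were 3. The library labelled EGF 24 h replicate 6, of title run 8 and left out, held 1.33 CPM of ETV5 and 6.46 CPM of EGR1, where the 4 EGF libraries used held 12.3 to 16.8 and 25.8 to 37 CPM (scaled over all 48 libraries). It was thus left out for genes of this comparison, and the 24 h calls hold only for the libraries kept. Of the 118 genes of the EGF side 9 were called again, among them EGR1, EGR3, ARC, ETV5, SPRED2 and PPP2R2C, and 96 had a log2 above 0 (median 0.21). Over all 19369 tested genes 9839 lay above 0 and 9523 below 0 at 24 h. None of the 59 genes of the AII side was called towards AII at 24 h: their median log2 was 0.14, and 19 lay below 0. LBH was called the opposite way, at 33 ± 2.73 CPM under EGF and 21.7 ± 2.09 CPM under AII (SD, n = 4 each). The difference between the times was itself called for 104 genes (0.537%), including 38 of the 59, each of them more towards AII at 6 h. Because the 118 and 59 genes were chosen by the same 6 h libraries, its direction among them partly follows from that choice. DESeq2 called this difference for 163 genes, and edgeR with all 48 libraries for 13. CGA under AII stood at 11.6 ± 2.74 CPM at 6 h (SD, n = 5) and at 1.4 ± 0.38 CPM at 24 h (SD, n = 4), where control had 1.07 ± 0.13 CPM. HSPA5 under AII stood at 848 ± 48.2 CPM at 6 h and 436 ± 43.4 CPM at 24 h, and under EGF at 451 ± 11.6 CPM (n = 3) and 646 ± 31.9 CPM (n = 4). On the EGF side the difference between times was called for 23 genes, 21 of them larger at 6 h, such as EGR1 (log2 4.0 at 6 h, 1.93 at 24 h) and GABBR2 (2.15 and -0.38). The 2 exceptions were ETV4 and ETV5, whose log2 difference was larger at 24 h. ETV4 was not called at 24 h, under the 5 CPM minimum, with 3.52 ± 0.68 CPM under EGF, 0.08 ± 0.08 CPM under AII and 0.07 ± 0.07 CPM in control. Under EGF both genes were higher at 6 h, with 6.42 ± 1.24 CPM of ETV4 and 32.5 ± 4.34 CPM of ETV5. ETV5 had 14.3 ± 2.13 CPM under EGF at 24 h and 0.87 ± 0.21 CPM under AII, where control had 0.8 ± 0.1 CPM.

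**Figure D5:**
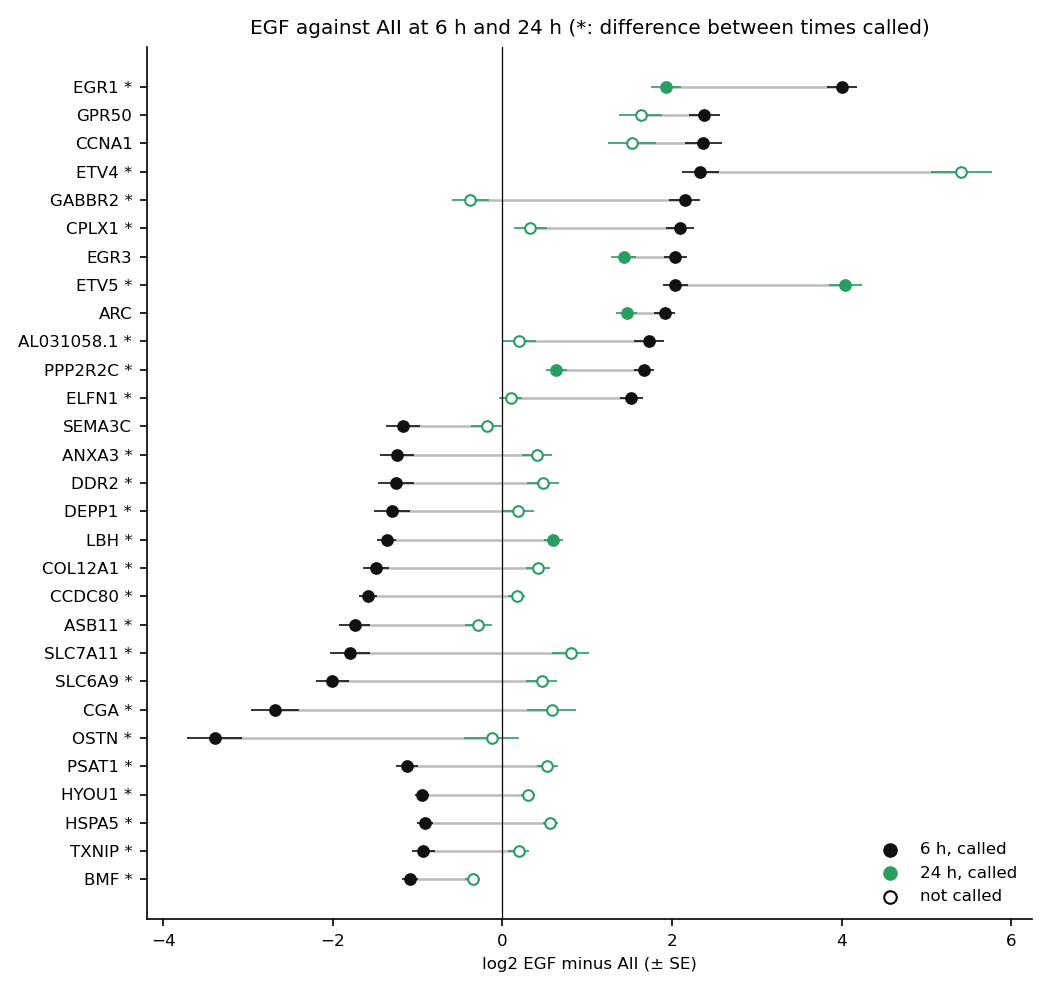
Log2 EGF minus AII (± SE of the fit) at 6 h (black) and 24 h (green) for 29 genes; filled points were called and an asterisk marks a called difference between the times. Genes of the AII side lie left of 0 at 6 h and near or right of 0 at 24 h, while EGR1, EGR3, ARC, ETV5 and PPP2R2C are called towards EGF at both times.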

How the data were processed

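Poly(A) RNA was sequenced in paired ends. Per the labels and the study's methods, the authors aligned them to hg38 with HISAT2 2.1.0, counted fragments per Ensembl gene with featureCounts and deposited those counts unscaled. The strand setting is not given in the sources used here, which leaves genes that overlap or have close copies uncertain. The table lists 60610 genes, 44295 with a count, and 19369 passed filterByExpr.

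The counts were fitted with edgeR 4.0.16 (R 4.3.3), with TMM factors and 1 quasi-likelihood fit over 33 libraries in 8 groups, without covariates, the 8 libraries of near-identical pairs (chi-square per degree of freedom of 0.397 to 0.505) and title runs 7 and 8, whose measured levels put their labels in doubt, left out. The closest pair among the 8 libraries compared reached 2.02. Calls needed a Benjamini-Hochberg adjusted p under 0.01, a difference of 1.5-fold and over 5 CPM in the group of higher mean (for the difference between times, in the highest of 4 groups). DESeq2 1.42.0 was an alternative. Nothing states that replicates are separate cultures, so p-values measure the spread between these libraries, which may be technical; replicate numbers follow the order of deposition.

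Named genes were the 12 largest called differences in each direction without overlap of libraries, the marker genes CGA and ETV5, 4 receptor and early genes, and up to 4 called members of each list, or the member of smallest p; other names were chosen after their values were seen. The result of 1 gene under this rule is not reported here. The libraries, lists and rules were chosen with earlier results of these data known. The fit was tested on simulated data without title-run effects or doubtful labels, so that test does not bear on the choice of libraries. Promoters (250 bases before to 50 after a gene's start) and gene positions are from RefSeq on GRCh38.p14, matched by symbol; motifs were searched on both strands.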

Additional observations from a re-analysis of the deposited data

Results flagged for a closer look

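The contrast of EGF with AII differed between 6 h and 24 h, by a test of that difference in edgeR, for 104 genes, among them 24 of the 49 named genes. Many named genes were chosen by their 6 h values, so the direction among them partly follows from that choice. The difference of the log2 values (6 h minus 24 h) was above 0, that is more towards EGF at 6 h, for EGR1 (2.07), GABBR2 (2.52), CPLX1 (1.76), AL031058.1 (1.53), PPP2R2C (1.03), ELFN1 (1.43), NAB2 (0.85) and CAVIN1 (0.84). It was below 0 for ETV4 (-3.08) and ETV5 (-2.0), whose log2 EGF minus AII was larger at 24 h, where their AII means lay near control and ETV4 was not called. It was also below 0 for 14 genes higher under AII at 6 h: OSTN (-3.27), CGA (-3.26), SLC7A11 (-2.60), SLC6A9 (-2.47), LBH (-1.97), COL12A1 (-1.91), CCDC80 (-1.75), DDR2 (-1.73), ANXA3 (-1.66), PSAT1 (-1.65), CTH (-1.63), DEPP1 (-1.48), ASB11 (-1.46) and TXNIP (-1.13).

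Among the 5 AII libraries at 6 h, 1 library lay far from the others by Dixon's criterion in 2 of 49 named genes: HBEGF in replicate 2 (3.48 CPM, the highest) and SLC6A9 in replicate 5 (17.2 CPM, the lowest). Chance flags about 1 in 20 such groups.

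Of the libraries left out, the one labelled AII 6 h replicate 6 held 49.7 CPM of ETV5 and 15.1 CPM of CGA, scaled over all 48 libraries. EGF 6 h replicates 1, 2 and 6 held 54.5, 33.4 and 33.5 CPM of ETV5 and 3.84, 2.89 and 2.95 CPM of CGA. All 8 values lie above the control libraries used, which reached 1.22 CPM for both genes.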

How the results depend on the processing

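The 177 genes called between EGF and AII at 6 h all kept their direction with RLE factors, DESeq2, either other filter, only the 8 or only the 6 h libraries, title runs 4 and 5 alone and title run as a block (171 to 221 called), and 176 were also called by DESeq2. Leaving out 1 library gave 137 to 183 calls, and leaving out AII replicates 1 and 2 together, chosen after seeing the data, 146. The count depended on the libraries left out: with all 48 it was 22, with AII replicate 6 added 45, and with title runs 7 and 8 added 13, the cause of which was not tested. Without a fold minimum it was 299 and without an abundance minimum 267, since fewer conditions applied.

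At 24 h, 29 calls became 47 at an adjusted p under 0.05, 38 with title run as a block and 0 in edgeR with all 48 libraries (1100 genes at an unadjusted p under 0.05). Leaving out 1 library gave 14 to 36; the lower counts were 14 without EGF replicate 4, 16 without AII replicate 5, and 18 and 19 without AII replicates 1 and 2. Alternatives chosen after seeing the data gave 13 with only the 24 h libraries and 3 with only title runs 3 and 6. The 104 calls of the difference between times became 163 with DESeq2, 184 at an adjusted p under 0.05 and 13 with all 48 libraries; the cause was not tested. No paired analysis was possible because the titles carry no replicate numbers shared between groups; title run, which can hold several libraries of a group, was used as a block instead (193 calls at 6 h). Of 980 values of named genes between EGF and AII under an alternative, 887 were counted as unchanged and 93 lost their call, 75 of these where left-out libraries were added. A change of direction was counted only for genes called in the main fit, where it occurred 0 times. Genes not called could change sign, as COL1A1 did with title run as a block (log2 -0.06 in the main fit and 0.05). Genes such as SPRY4 missed only the 5 CPM minimum.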
